A study of Mus musculus with 74 samples.

Results

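The genes described here are 106 of the 24851 genes in the deposited RNA tables of a mouse macrophage cell line, RAW264.7, stimulated with bacterial lipopolysaccharide (LPS). They were chosen by their RAW264.7 values: the mean of the 2 libraries, plus 1, was at least 3-fold higher at 120 min of LPS than at 0 min and below 1.5-fold at 60 min, and the 120 min mean was at least 100 normalized reads. Of 10298 genes with a 120 min mean of at least 100, 368 (3.57%) were at least 3-fold higher at 120 min and 125 of those were below 1.5-fold at 60 min. A further 19 genes were left out by the start of their names (among them Irf1, Irgm1, Ifit2, Ifit3, Mx1, Gbp7, Cd44, Cd274 and Slc7a11), which leaves the 106. Since the RAW264.7 values made the choice, every contrast with a RAW264.7 group is given below as a description without a test.

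LPS binds Toll-like receptor 4 and starts a first wave of transcription that needs no new protein, carried by NF-kB, AP-1 and serum response factors already in the cell. Part of the later wave depends on proteins of the first, above all on type I interferon, which is secreted, binds its receptor and raises transcription from genes with interferon-stimulated response elements. Other late genes are slow because their chromatin has to be remodelled, or because long genes take time to transcribe. Histone H3.3, encoded by H3f3a and H3f3b, is the replacement histone laid down at active genes, and its serine 31 is phosphorylated in stimulated macrophages.

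The study asked how H3.3 and its phosphorylation bear on stimulated transcription. It used unmodified RAW264.7 cells, a hypomorphic RAW264.7 line and H3f3a/H3f3b double knockout lines made with CRISPR, with 2 RNA libraries for each line at 0, 60 and 120 min of LPS. The labels name the derived lines only as 264 and 3205 and do not say which is which, so they are called by number. Each number is 1 line, so a difference between lines can also be one between clones. All 18 libraries are of RAW264.7 origin by their source label, although their tissue label says bone marrow derived macrophage. Primary macrophages received 100 ng/mL of LPS from S. typhosa, and no dose is stated for the RAW264.7 lines.

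Libraries held 13084927 to 53860392 reads assigned to genes, with the lowest in RAW264.7 at 60 min, replicate 2, which enters the choice of the genes. At 0 min H3f3a, which checks the labels, gave 2926 and 2055 normalized reads (RAW264.7), 188 and 236 (line 264) and 76.2 and 63.4 (line 3205). H3f3b gave 15367 and 13623 (RAW264.7), 5642 and 7145 (line 264), and 7177 and 7437 (line 3205). All 13 macrophage markers were detected in each line, and their summed level ran from 477058 to 703012 in RAW264.7, from 150190 to 238068 in line 264 and from 220935 to 312867 in line 3205. Of 7 B cell markers 3 (Cd79a, Cd79b and Vpreb1) had a mean of at least 1 in line 3205, where the 7 summed to 24.3 to 153, against at most 6.91 elsewhere, and those of fibroblasts and neutrophils to at most 72.9 in any library. Markers of T and NK cells summed to 104 to 250 and those of dendritic cells to 88.5 to 420 over all 18 libraries. In bulk RNA, fewer cells of a type and less RNA per cell cannot be told apart. The part of the lower macrophage markers in the results below was not tested.

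Promoters are shown for 5 of the 106 genes, 4 with an interferon motif near the start and 1 with an NF-kB motif, to show the letters counted below. RefSeq (GRCm38.p6) gave a promoter of 300 bases (250 before to 50 after the start) for 72 of the 106. The window printed runs from 120 bases before the start to 30 bases after it, 5′ to 3′ along the gene. Capitals mark the core of an interferon-stimulated response element, GAAANNGAA on either strand, in the first 4, and an NF-kB site, GGANTTTCC on either strand, in Ltb.
Trim21: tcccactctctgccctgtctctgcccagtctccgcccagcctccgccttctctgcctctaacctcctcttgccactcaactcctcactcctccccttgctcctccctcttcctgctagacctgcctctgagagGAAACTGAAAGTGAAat
Igtp: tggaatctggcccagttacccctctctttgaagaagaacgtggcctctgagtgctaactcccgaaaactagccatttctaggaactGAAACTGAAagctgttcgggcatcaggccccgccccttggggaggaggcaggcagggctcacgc
Gm12250: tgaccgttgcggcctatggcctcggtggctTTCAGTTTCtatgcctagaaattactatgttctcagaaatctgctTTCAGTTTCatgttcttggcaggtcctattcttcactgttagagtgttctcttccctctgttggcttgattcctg
Slfn8: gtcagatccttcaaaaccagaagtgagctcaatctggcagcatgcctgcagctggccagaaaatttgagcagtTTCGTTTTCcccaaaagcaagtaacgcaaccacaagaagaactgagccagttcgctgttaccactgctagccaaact
Ltb: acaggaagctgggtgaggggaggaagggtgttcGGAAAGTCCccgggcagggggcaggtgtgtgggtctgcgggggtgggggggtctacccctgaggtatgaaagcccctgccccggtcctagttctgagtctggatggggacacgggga
The windows lie at chr7:102565453-102565602, - strand (Trim21), chr11:58199436-58199585, + strand (Igtp), chr11:58183723-58183872, + strand (Gm12250), chr11:83020781-83020930, - strand (Slfn8) and chr17:35194387-35194536, + strand (Ltb). The capitals in Trim21 join a pair of overlapping matches. Trim21 (an antibody-binding ubiquitin ligase), Igtp and Gm12250 (which lie next to each other) and Slfn8 did not pass the test in either derived line at 120 min, and Ltb, lymphotoxin beta, rose in both.

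The response element core was in the promoter of 12 of the 72 genes (16.7%), against 9.76% of the 27025 genes in the RefSeq table. It was in 0 of the 16 promoters of genes that limma called higher at 120 min in both derived lines and in 12 of the 52 (23.1%) of genes called in neither, which include genes with higher values that missed the threshold. Genes called in neither also include some with almost no reads in the derived lines, such as Pcdh7, which holds the core and could hardly be called. With the replicate number as a block in the fit the counts were 0 of 24 and 11 of 37 (29.7%), since Clec2d was then called in line 264. Among the genes on a list of interferon-stimulated genes it was in 6 of 9 promoters (66.7%). The NF-kB site was found in Ltb alone, 1 of 72, against 1.45% of all genes. A TATA box core, TATAAA on either strand, was in 4 of the 16 promoters of genes called in both lines and in none of the 52 of genes called in neither, against 15.7% of all genes. An AP-1 site, TGANTCA, was in 3 of the 16 and in 3 of the 52 (8.97% of all genes). A gamma-activated site, TTCNNNGAA, was in 7 of the 72 (9.72%) against 9.55% of all genes, a C/EBP palindrome, TTGCNNAA, in 7 of the 72 against 12.2% of all genes, and a CRE, TGACGTCA, in none of the 72 against 2.03%. These are matches of letters in a short window, not binding sites.

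In RAW264.7 the median gene of the 106 was 1.11-fold of its 0 min level at 60 min and 4.11-fold at 120 min, values fixed by the choice. At 60 min, 31 of the 106 already had both RAW264.7 libraries above both 0 min libraries (26.4% of the 10298 genes did) and 8 had both below (21.7%). Clec4a1 (3.0-fold), Rtp4 (3.01) and Ahdc1 (3.04) lay just inside the 120 min threshold, and Tor3a, Ptpn5 and Fam129b (each 2.99) just outside. At 60 min Olfml3 (1.5), C3ar1 (1.49) and Zbp1 (1.49) lay just inside and Homer1 (1.51) just outside, with 2500002B13Rik (1.52) and AW011738 (1.53) next. By level, Clu (102), Clec4a1 (105) and 4932441J04Rik (111) lay just inside and Adora2a (97.4), Tnc (83.3) and Fam171b (74.6) just outside. Sgms2, which makes sphingomyelin, had the highest 120 min fold of the 106 in RAW264.7, 77.9, from 1.09 and 0 normalized reads at 0 min to 119 and 119.9 at 120 min. RefSeq lists 98 of the genes as protein coding, 3 as long noncoding RNAs, 2 as pseudogenes and 2 as other RNAs, and 1 name had no match. A few carry older names that the name filter could not catch: Pyhin1 is now Ifi209, I830012O16Rik is Ifit3b and 2010002M12Rik is Ifit1bl2.

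In the fit without the replicate number, about 1 in 4 of the genes were called higher at 120 min in each derived line. limma called 27 of the 106 higher at 120 than at 0 min in line 264 and 28 in line 3205, at an adjusted p below 0.05. None was called lower. Over all 17450 genes tested, 2.88% were called higher in line 264 and 2.89% in line 3205, and 2.55% and 2.14% lower. Among genes with a RAW264.7 120 min mean of at least 100 the higher calls were 4.57% and 4.56%. All 106 passed the filter on low values, which their RAW264.7 level ensures. The calls were of 24 genes in both lines, 3 in line 264 alone, 4 in line 3205 alone and 75 in neither. At most 3 reads per group at every time were counted for 6 of the 106 in line 264 and 4 in line 3205. Such genes could hardly be called there, so the lack of a call does not describe their response. At an unadjusted p below 0.05, 49 were higher and 1 lower in line 264, and 40 higher and none lower in line 3205. The share of all genes at that unadjusted threshold is not given, so these counts have no background to be read against.

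With the replicate number as a block, 52 genes were called higher in line 264 (7.77% of all genes) and 40 in line 3205 (7.18%), and the 24 called in both lines were among them each time. The block called 38 genes in both lines, 14 in line 264 alone, 2 in line 3205 alone (Ptprj and Pmepa1) and 52 in neither. Of the 75 called in neither line without the block it called 22 in line 264 and 9 in line 3205. DESeq2 on recovered reads called 46 in line 264 (5.08% of all genes) and 37 in line 3205 (4.95%). A fit of only the groups compared, with 4 libraries, called none in either line. Leaving out 1 library of the fit at a time gave 18 to 33 calls in line 264 (18 without its replicate 1 at 0 min) and 18 to 26 in line 3205 (18 without its replicate 1 at 120 min), and 17 and 18 of the calls were made whichever library was left out. The calls that some left-out library ended were those of Plagl2, Tet2, Stim2, Pou2f2, Sash1, Agpat4, Ltb, Micall2, Jade2 and Adora2b in line 264, and of Itpkb, Smox, Mmp9, Stim2, Slfn4, Agpat4, Ltb, Abtb2, Pmepa1 and Gm17709 in line 3205. With 2 libraries a group these p-values measure the spread between libraries, which the labels do not tie to separate cultures.

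On the scale of group means the median log2 change at 120 min was 2.04 (RAW264.7), 1.04 (line 264) and 0.75 (line 3205), against 0.03, 0.02 and 0.01 for all 10298 genes at that level. The median gene kept 49.4% of its RAW264.7 log2 response in line 264 and 34.4% in line 3205. The response was below that of RAW264.7 in 93 and 95 of the 106, a direction that choosing the genes by a high RAW264.7 response favours. At 0 min the genes lay on both sides of RAW264.7: the log2 ratio to RAW264.7 ran from -11.93 to 3.78 in line 264 (median -0.09) and from -11.77 to 5.87 in line 3205 (median -0.08). Without LPS both line 264 libraries lay below both of RAW264.7 for 35 genes and above for 25 (27.6% and 23.4% of the 10298), and those of line 3205 below for 38 and above for 21 (27.6% and 21.8%). At 120 min the median log2 ratio was -1.12 for line 264 and -1.40 for line 3205, against -0.02 and -0.04 for all 10298. Both 120 min libraries lay above both 0 min libraries for 59 genes in line 264 and 49 in line 3205 (26.8% and 22.6% of the 10298), and below for 5 in each (24.1% and 21.3%). At least 3-fold higher at 120 min were 25 genes in each derived line (2.45% and 2.46% of the 10298).

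**Figure D1:**
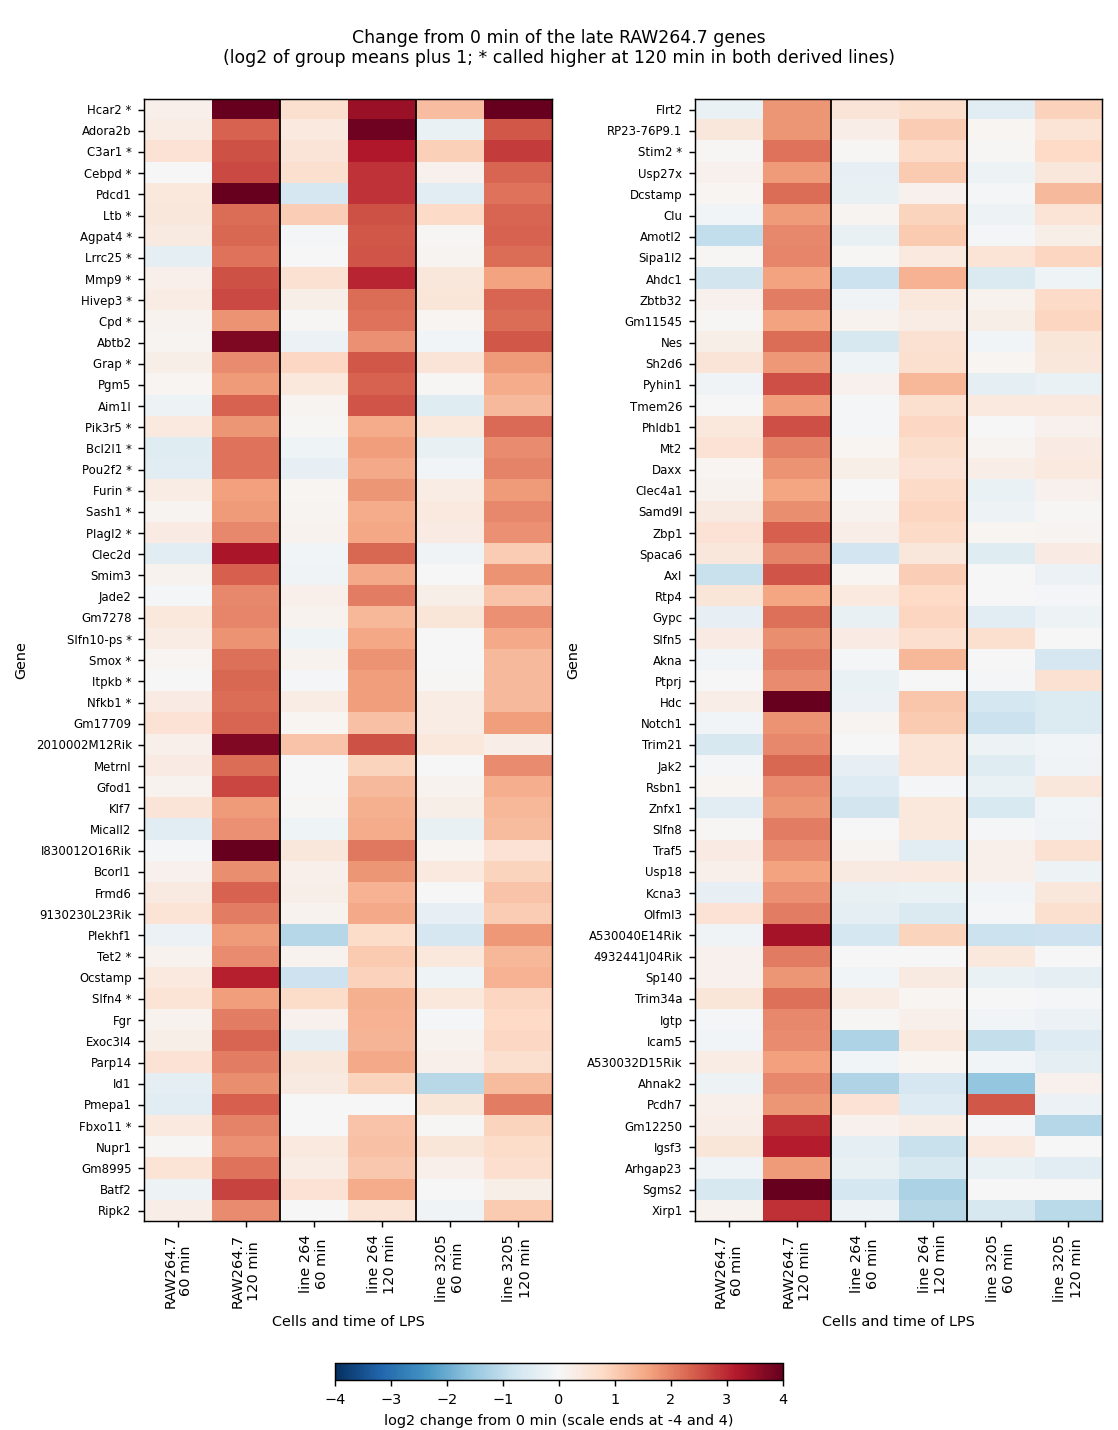
Change from 0 min in log2 units (colour; group means plus 1) for each of the 106 genes (rows) at 60 and 120 min in RAW264.7, line 264 and line 3205 (columns), in order of the mean 120 min change in the derived lines. RAW264.7 is red at 120 min in every row by the choice of genes, while the derived lines fade from Hcar2 at the top left to Xirp1 at the bottom right, and the 24 starred genes were called higher in both.

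Across the 106 genes the limma log2 responses of lines 264 and 3205 correlated at r = 0.72 (Spearman 0.71), while those of RAW264.7 and of each line, on group means, correlated at r = 0.07 and 0.06. These are correlations across genes of shared libraries, and the rule narrows the range of RAW264.7. Over all 10298 genes lines 264 and 3205 correlated at r = 0.91.

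**Figure D2:**
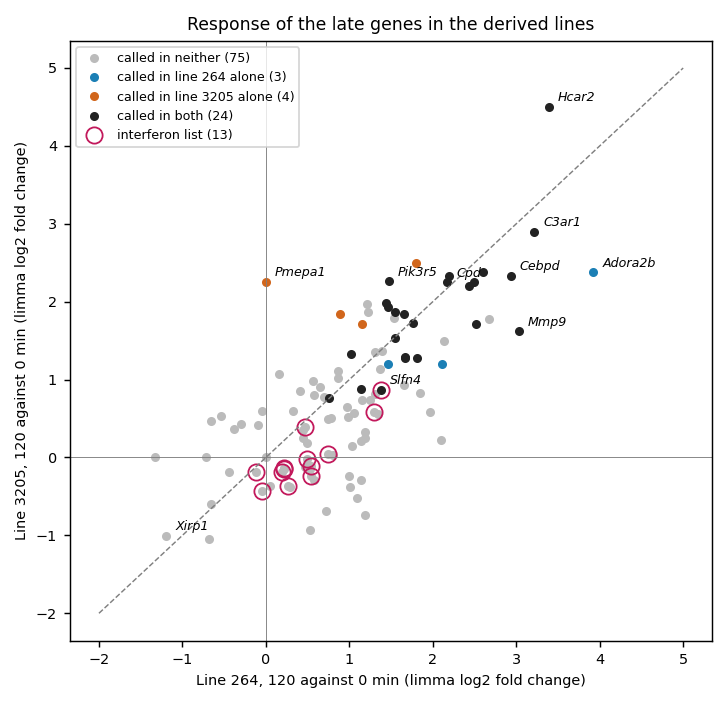
limma log2 fold change at 120 against 0 min in line 264 (x axis) and line 3205 (y axis) for the 106 genes, coloured by where they were called higher, with the 13 genes of the interferon list ringed and the dashed line at equal change. The 24 genes called in both lines lie at the upper right, and the ringed genes other than Slfn4 reach at most 1.30 (Parp14 in line 264) on either axis.

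The genes called in both lines held several transcription regulators: Nfkb1, Cebpd, Pou2f2, Hivep3, Plagl2 and Tet2. Cebpd encodes C/EBP delta, a transcription factor of the acute phase response. Cebpd in RAW264.7 measured 531 and 389 at 0 min, 451 and 470.0 at 60 min, and 3117 and 2598 at 120 min (normalized reads). Line 264 gave Cebpd values of 336 and 509 at 0 min, 632 and 678 at 60 min, and 3167 and 3173 at 120 min. Line 3205 gave Cebpd values of 408 and 264 at 0 min, 463 and 298 at 60 min, and 1925 and 1428 at 120 min. Both 120 min libraries lay above all 0 and 60 min libraries in every line. limma put the Cebpd change at 2.94 (SE 0.27, adjusted p = 0.000256) in line 264 and 2.33 (SE 0.27, adjusted p = 0.00111) in line 3205. On group means the Cebpd response was 110% (line 264) and 87.9% (line 3205) of the RAW264.7 log2 response.

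Nfkb1 encodes p105, the precursor of the p50 subunit of NF-kB. Nfkb1 in RAW264.7 measured 5585 and 5783 at 0 min, 6772 and 7585 at 60 min, and 27818 and 25145 at 120 min. Line 264 gave Nfkb1 values of 5434 and 6779 at 0 min, 7439.8 and 7671 at 60 min, and 21071 and 17770.2 at 120 min. Line 3205 gave Nfkb1 values of 4457 and 5599 at 0 min, 5754 and 6672 at 60 min, and 12372 and 12157 at 120 min. The 3 lines overlapped at 0 min and not at 120 min, where RAW264.7 was highest and line 3205 lowest without overlap. The log2 change was 1.67 (SE 0.16, adjusted p = 0.000292) in line 264 and 1.30 (SE 0.16, adjusted p = 0.00147) in line 3205. At 120 min Nfkb1 was lower in line 3205 than in line 264, at -0.66 (SE 0.16, adjusted p = 0.0303). Pou2f2 (Oct-2) rose by log2 1.44 (SE 0.29, adjusted p = 0.0185) and 1.98 (SE 0.29, adjusted p = 0.00372), and Tet2, a 5-methylcytosine dioxygenase, by 1.02 (SE 0.20, adjusted p = 0.0192) and 1.33 (SE 0.20, adjusted p = 0.00529) in lines 264 and 3205. Hivep3 and Plagl2, zinc finger proteins, rose 4.71-fold and 2.94-fold in line 264 and 5.0-fold and 3.55-fold in line 3205. On the list of late transcription factors 2 of the 4 genes here (Cebpd and Pou2f2) rose in each line, and of the 35 others tested 11 rose and 3 fell in line 264 and 10 rose and 2 fell in line 3205. Batf2 and Sp140 did not pass: Batf2, a basic leucine zipper factor, went from 69.2 and 47.03 to 259 and 66.03 in line 264 and from 28.2 and 35.9 to 43.2 and 33.3 in line 3205, against 57.7 and 67.2 to 538 and 288 in RAW264.7. Sp140, a nuclear body protein, had a log2 change of 0.29 (SE 0.35, adjusted p = 0.753) in line 264 and -0.38 (SE 0.35, adjusted p = 0.705) in line 3205.

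The 3 largest mean responses of the derived lines were of surface receptors. Hcar2, the receptor for niacin and the ketone body beta-hydroxybutyrate, led the 106 in the mean over the derived lines. Hcar2 in RAW264.7 measured 148 and 133 at 0 min, 147 and 179.5 at 60 min, and 2983 and 1774 at 120 min. Line 264 gave Hcar2 values of 90.1 and 145 at 0 min, 162 and 209 at 60 min, and 1758 and 832 at 120 min. Line 3205 gave Hcar2 values of 63.3 and 112 at 0 min, 175 and 246 at 60 min, and 1816 and 2056 at 120 min. All 120 min libraries lay above all others of their line. The fold of group means was 16.8 (RAW264.7), 10.9 (line 264) and 21.8 (line 3205), and the limma log2 change was 3.39 (SE 0.41, adjusted p = 0.00130) in line 264 and 4.50 (SE 0.41, adjusted p = 0.000223) in line 3205.

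C3ar1 is the receptor for complement fragment C3a. C3ar1 in RAW264.7 measured 1276 and 1407 at 0 min, 1722 and 2286 at 60 min, and 8195 and 7513 at 120 min. Line 264 gave C3ar1 values of 199 and 291 at 0 min, 219 and 487 at 60 min, and 2649 and 1904 at 120 min. Line 3205 gave C3ar1 values of 533 and 1455 at 0 min, 1214 and 2675 at 60 min, and 4937 and 8743 at 120 min. In line 264 its 0 min level was a fraction of that in RAW264.7, but the rise was 3.22 (SE 0.43, adjusted p = 0.00217) there and 2.90 (SE 0.43, adjusted p = 0.00424) in line 3205. Adora2b, the low-affinity adenosine receptor A2B, was called in line 264 alone, and in both lines with the replicate block. Adora2b in RAW264.7 measured 184 and 148 at 0 min, 252 and 153 at 60 min, and 766 and 946 at 120 min. Line 264 gave Adora2b values of 68.3 and 104 at 0 min, 84.8 and 141 at 60 min, and 1211 and 1383 at 120 min. Line 3205 gave Adora2b values of 113 and 28.7 at 0 min, 88.6 and 28.7 at 60 min, and 668 and 136 at 120 min. Line 264 reached the highest 120 min level of the 3 lines, and in line 3205 the libraries at 120 min were far apart. The log2 change was 3.92 (SE 0.72, adjusted p = 0.0128) in line 264 and 2.38 (SE 0.72, adjusted p = 0.106) in line 3205, and the difference between these responses, -1.54 (95% interval -3.82 to 0.74), was not called.

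Cpd, Furin, Mmp9 and Ltb were also called in both lines. Cpd, a carboxypeptidase that trims proteins in the secretory pathway, was among the most evenly raised. Cpd in RAW264.7 measured 6240.4 and 5087 at 0 min, 6669.7 and 5687 at 60 min, and 20100.2 and 18852 at 120 min. Line 264 gave Cpd values of 4035 and 4251 at 0 min, 3969 and 4558 at 60 min, and 18292 and 19070.0 at 120 min. Line 3205 gave Cpd values of 3915 and 3150.2 at 0 min, 3908 and 3527 at 60 min, and 17516 and 15983 at 120 min. The 120 min libraries of all 3 lines lay within a narrow range, and the log2 change was 2.17 (SE 0.15, adjusted p = 3.58e-05) in line 264 and 2.25 (SE 0.15, adjusted p = 2.55e-05) in line 3205. Furin, the proprotein convertase, rose 3.39-fold in line 264 and 3.26-fold in line 3205, close to its 3.11-fold in RAW264.7.

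Mmp9, the gelatinase of matrix breakdown, was low in RAW264.7 at every time. Mmp9 in RAW264.7 measured 33.7 and 26.6 at 0 min, 25.2 and 44.9 at 60 min, and 139.8 and 226 at 120 min. Line 264 gave Mmp9 values of 112 and 102 at 0 min, 197 and 129.6 at 60 min, and 1058 and 734 at 120 min. Line 3205 gave Mmp9 values of 236 and 285 at 0 min, 384 and 337 at 60 min, and 832 and 772 at 120 min. Its level in both derived lines was above RAW264.7 at all 3 times without overlap. It rose by log2 3.03 (SE 0.28, adjusted p = 0.000256) in line 264 and 1.62 (SE 0.28, adjusted p = 0.0101) in line 3205. On the list of adhesion, matrix and protease genes 6 of 21 others tested rose in line 264 and 7 in line 3205. Ltb encodes lymphotoxin beta, a membrane ligand of the TNF family. Ltb in RAW264.7 measured 979.8 and 638 at 0 min, 1137 and 1061 at 60 min, and 4536 and 3166 at 120 min. Line 264 gave Ltb values of 3441 and 3743 at 0 min, 8829.6 and 5485 at 60 min, and 29489 and 12798 at 120 min. Line 3205 gave Ltb values of 439 and 448 at 0 min, 899 and 619 at 60 min, and 3089 and 1356 at 120 min. Line 264 held more Ltb than either other line at every time without overlap, and the rise was 2.44 (SE 0.44, adjusted p = 0.0115) there and 2.20 (SE 0.44, adjusted p = 0.0197) in line 3205. None of the 106 is on the list of secreted cytokines, whose names the choice mostly removed, and of its 31 genes tested 18 rose and 1 fell in line 264 and 17 rose and 1 fell in line 3205.

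Signalling and survival genes came next. Pik3r5 encodes p101, the regulatory subunit of the gamma form of phosphoinositide 3-kinase. Pik3r5 in RAW264.7 measured 5361 and 6554 at 0 min, 7848 and 7937 at 60 min, and 20604 and 19489 at 120 min. Line 264 gave Pik3r5 values of 1621 and 1697 at 0 min, 1552 and 1884 at 60 min, and 5041 and 4199 at 120 min. Line 3205 gave Pik3r5 values of 2482 and 2449.6 at 0 min, 2859 and 3716 at 60 min, and 12578 and 11093 at 120 min. RAW264.7 was above both derived lines at every time, and line 3205 above line 264. The rise was 1.47 (SE 0.14, adjusted p = 0.000292) in line 264 and 2.26 (SE 0.14, adjusted p = 2.05e-05) in line 3205. On the list of pattern recognition and signalling genes 20 of 38 others rose in line 264 and 17 in line 3205. Bcl2l1, which encodes the survival protein Bcl-xL, went from 3733 and 4745 to 15067 and 11693 in line 264, from 1256 and 1121 to 5389.7 and 3386 in line 3205 and from 1079 and 1266 to 4813 and 5665 in RAW264.7. Line 264 was thus higher at each end, and the changes were 1.66 (SE 0.23, adjusted p = 0.00278) and 1.85 (SE 0.23, adjusted p = 0.00156). Ripk2, the kinase downstream of the NOD receptors, is on the same cell death and survival list and did not pass in either line, at 0.57 (SE 0.36, adjusted p = 0.482) and 0.98 (SE 0.36, adjusted p = 0.195), but was called in both with the replicate block. Of the 28 others on that list 11 rose in line 264 and 9 in line 3205.

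Agpat4, an acyltransferase of phospholipid synthesis, rose by log2 2.61 (SE 0.43, adjusted p = 0.00752) in line 264 and 2.38 (SE 0.43, adjusted p = 0.0131) in line 3205. Grap, an adapter related to GRB2, went from 722 and 1153 to 5659 and 4812 in line 264, above the 3224 and 2328 of RAW264.7 at 120 min, and reached 2936 and 2503 in line 3205. The other genes called in both lines were Lrrc25, Itpkb (a kinase of inositol trisphosphate), Smox (spermine oxidase), Stim2 (a calcium sensor of the endoplasmic reticulum), Fbxo11 (part of a ubiquitin ligase), Sash1, Slfn4 and the pseudogene Slfn10-ps. Their folds ran from 1.69 (Stim2) to 5.67 (Lrrc25) in line 264 and from 1.73 (Stim2) to 4.74 (Lrrc25) in line 3205. Micall2 and Jade2, with Adora2b, were called in line 264 alone, and Abtb2, Metrnl, Pmepa1 and Gm17709 in line 3205 alone. With the replicate block all of these but Pmepa1 were called in both lines.

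**Figure D3:**
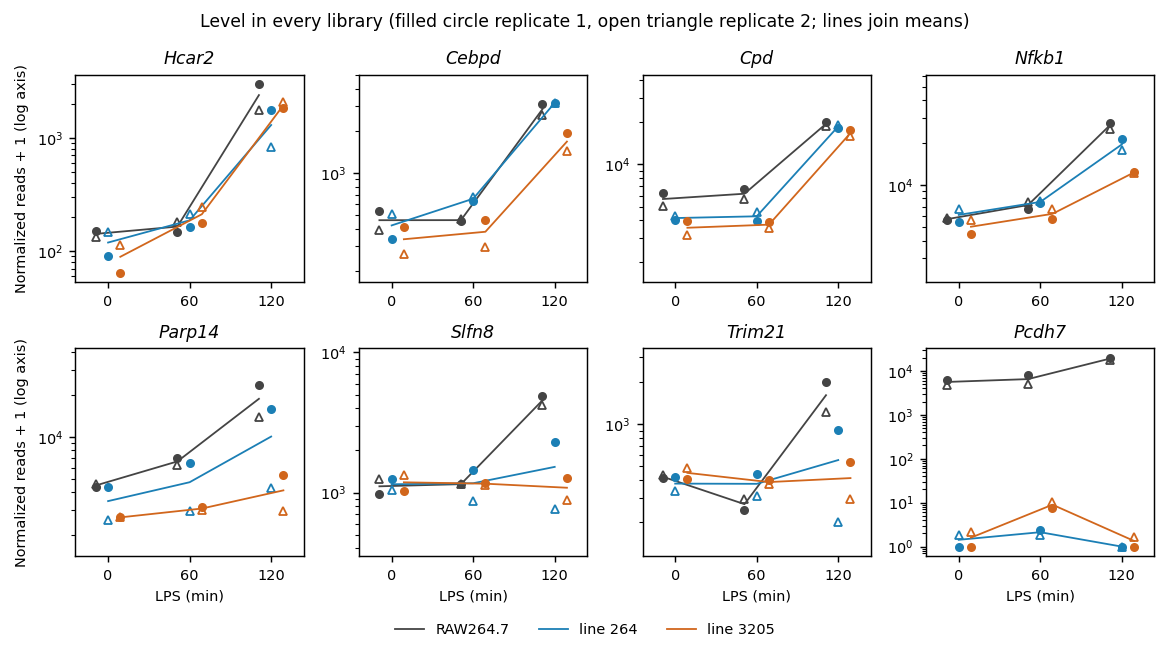
Normalized reads plus 1 (log axis, each panel with its own range) at 0, 60 and 120 min of LPS for 8 of the genes in RAW264.7 (grey), line 264 (blue) and line 3205 (orange), with replicate 1 as filled circles, replicate 2 as open triangles and lines joining the means. Hcar2, Cebpd, Cpd and Nfkb1 climb at 120 min in all 3 lines, Parp14, Slfn8 and Trim21 spread between replicates at 120 min in line 264, and Pcdh7 is near 0 in both derived lines.

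The genes of the 106 on the list of interferon-stimulated genes mostly did not pass the test in the derived lines. The list holds 13 of them: Usp18, Parp14, Trim21, Trim34a, Rtp4, Daxx, Samd9l, Zbp1, Znfx1, Slfn4, Slfn5, Slfn8 and Igtp. Only Slfn4 was called higher in each line, and none was called lower. Of the 60 others on the list 7 were called higher in line 264 and 3 in line 3205, with Slfn2, Cxcl10 and Oasl1 in each. The median limma log2 change of the 13 was 0.47 in line 264 and -0.14 in line 3205, against -0.01 and -0.03 over all genes tested.

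Parp14, an ADP-ribosyltransferase, was the most abundant of them at 120 min in RAW264.7. Parp14 in RAW264.7 measured 4404 and 4577 at 0 min, 7081 and 6247 at 60 min, and 23474 and 13805 at 120 min. Line 264 gave Parp14 values of 4387 and 2556 at 0 min, 6521 and 2948 at 60 min, and 15716 and 4334 at 120 min. Line 3205 gave Parp14 values of 2658 and 2656 at 0 min, 3155 and 2990.3 at 60 min, and 5311 and 2973 at 120 min. In line 264 the 120 min libraries were far apart, and replicate 2 lay below replicate 1 at 0 min. The log2 change was 1.30 (SE 0.53, adjusted p = 0.229), and in line 3205 it was 0.58 (SE 0.53, adjusted p = 0.699). Parp14 in line 264 was called with the replicate block. Slfn8, a Schlafen protein with one of the response element cores shown above, measured 973 and 1244 at 0 min and 4892 and 4219 at 120 min in RAW264.7. In line 264 Slfn8 went from 1249 and 1044 to 2282 and 769, and in line 3205 from 1026 and 1341 to 1277 and 888. Trim21 went from 417 and 336 to 910.2 and 199 in line 264 and from 408 and 490.2 to 533 and 292 in line 3205, against 412 and 431 to 1991 and 1232 in RAW264.7. In both genes the 120 and 0 min libraries of each derived line overlapped.

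Daxx encodes a chaperone that deposits H3.3. It stood at 1891 and 1989 at 0 min and 7758 and 5810.0 at 120 min in RAW264.7, at 1768 and 1537 and then 3412 and 1536 in line 264, and at 1362 and 1484 and then 1982 and 1765 in line 3205. The change was 0.47 (SE 0.30, adjusted p = 0.482) and 0.40 (SE 0.30, adjusted p = 0.626), so a rise was not shown in either line. Usp18, which removes the ubiquitin-like ISG15 from proteins, had log2 values of 0.27 (SE 0.56, adjusted p = 0.877) and -0.36 (SE 0.56, adjusted p = 0.838), and Znfx1, an RNA helicase, 0.21 (SE 0.41, adjusted p = 0.867) and -0.15 (SE 0.41, adjusted p = 0.926). The changes of Igtp (an immunity GTPase), Trim34a, Rtp4 and Zbp1 (a sensor of Z-form nucleic acids) lay between -0.11 (Trim34a) and 0.55 (Rtp4) in line 264 and between -0.44 (Igtp) and -0.10 (Zbp1) in line 3205, with SE from 0.59 to 0.72. Slfn4 rose by 1.38 (SE 0.20, adjusted p = 0.00334) in line 264 and 0.87 (SE 0.20, adjusted p = 0.0349) in line 3205.

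The interferon group also set the replicates apart, in RAW264.7 as well. Taking each replicate number by itself, the 120 min response was larger in replicate 1 for 13 of the 13 genes (RAW264.7), 13 (line 264) and 12 (line 3205). Over all 106 genes it was larger in replicate 1 for 54, 81 and 82, and over the 10298 genes for 51.8%, 51.4% and 55.5%. The median fold of the 13 was 4.45 in replicate 1 and 2.83 in replicate 2 of RAW264.7, then 2.01 against 0.999 for line 264, and 1.24 against 0.671 for line 3205. Within each replicate number RAW264.7 had the largest median, which the choice of genes favours, and line 3205 had the smallest. For the 24 genes called in both lines the medians were 4.31 against 4.42 (RAW264.7), 4.02 against 2.87 (line 264), and 4.13 against 3.02 (line 3205). For the 63 genes called in neither line and not on the interferon list they were 4.12 and 4.22, 1.98 and 1.51, and 1.59 and 1.10. The 63 include Pyhin1, I830012O16Rik and 2010002M12Rik. The part of the replicate number in the results was not tested beyond the fit with the block, which called Slfn4 and Parp14 of the 13 in line 264 and Slfn4 in line 3205.

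**Figure D4:**
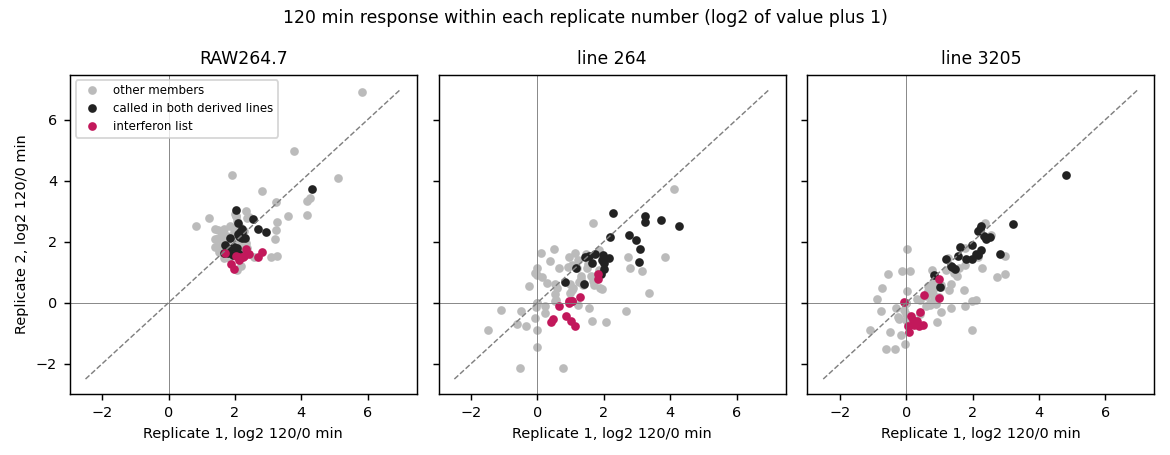
Response at 120 over 0 min (log2 of value plus 1) in replicate 1 (x axis) and replicate 2 (y axis) of RAW264.7, line 264 and line 3205, 1 point a gene, with the dashed line at equal response. The 13 interferon genes (magenta) lie below the dashed line in RAW264.7 and line 264 and all but 1 in line 3205. The 24 genes called in both derived lines are black, but for Slfn4, which is magenta. They stay above 0 in both replicates of every line, which their choice and their calls favour.

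The other genes of the 75 called in neither line were a mixed set. With the replicate block Klf7, Gm7278, Ripk2, Fgr, Frmd6, Gfod1, Smim3 and Bcorl1 were called in both lines, Ptprj in line 3205, and Pdcd1, Notch1, Akna, Clec2d, Axl, Nupr1, Phldb1, Exoc3l4, Parp14, Pgm5, Usp27x, RP23-76P9.1, Gm8995 and 2010002M12Rik in line 264. The 75 hold the lectin and adhesion genes Clec2d, Clec4a1, Icam5, Igsf3, Pcdh7 and Flrt2, the cell fusion genes Dcstamp and Ocstamp, the signalling genes Ptprj, Jak2, Notch1, Axl, Fgr, Traf5, Ripk2 and Pdcd1, and the regulators Klf7, Id1, Zbtb32, Batf2, Sp140, Akna, Bcorl1 and Ahdc1. Rsbn1, Kcna3, Sh2d6, Plekhf1, Nupr1, Mt2, Sipa1l2, Phldb1, Amotl2, Xirp1, Tmem26, Arhgap23, Frmd6, Exoc3l4, Ahnak2, Gfod1, Clu, Spaca6, Gypc, Smim3, Pgm5, Usp27x, Hdc, Nes, Olfml3, Sgms2, Aim1l and Pyhin1 complete the named genes. The rest carry provisional names: A530032D15Rik, A530040E14Rik, 4932441J04Rik, 9130230L23Rik, I830012O16Rik, 2010002M12Rik, RP23-76P9.1, Gm7278, Gm8995, Gm11545 and Gm12250. Gfod1, one of the 8 most abundant of the 106 at 120 min in RAW264.7, missed the threshold without the block at 1.31 (SE 0.48, adjusted p = 0.170) in line 264 and 1.36 (SE 0.48, adjusted p = 0.170) in line 3205. It went from 2516 and 2043 to 12589 and 16497 in RAW264.7, from 3129 and 2356 to 7284 and 6249.9 in line 264 and from 2369 and 1082 to 7119 and 2370.1 in line 3205, where the replicates differed. Mt2, a metallothionein on the antioxidant list, stood at 2258 and 2051 and then 10764 and 6580.1 in RAW264.7. Mt2 gave 69.2 and 134 and then 65.8 and 264 in line 264, and 479 and 213 and then 637 and 228 in line 3205. Neither change of Mt2 passed, and of the 18 others on its list 1 rose in each line.

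Several genes were near absent from the derived lines, before and after LPS. At most 3 reads per group at every time were counted for 6 of the 106 in line 264 and 4 in line 3205, with 3 in both, where such genes made up 0.398% and 0.320% of the 10298. Pcdh7, a protocadherin, was the most abundant. Pcdh7 in RAW264.7 measured 6268 and 4879 at 0 min, 7872 and 5088 at 60 min, and 19674 and 18090.2 at 120 min. Line 264 gave Pcdh7 values of 0 and 0.855 at 0 min, 1.39 and 0.864 at 60 min, and 0 in both libraries at 120 min. Line 3205 gave Pcdh7 values of 0 and 1.2 at 0 min, 6.61 and 9.35 at 60 min, and 0 and 0.694 at 120 min. At 120 min line 264 had no read, so Pcdh7 was at least 11419-fold lower there than in RAW264.7, taking 3 reads over the group as the floor. In line 3205, 1 read gave a ratio of 54382 (95% counting interval 10119 to 2226964). Counting intervals and floors cover counting error only.

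4932441J04Rik overlaps Pcdh7 on chromosome 5, so their reads may not be told apart without strand. It had no read at 120 min in line 264 (at least 67.2-fold lower) or line 3205 (at least 111-fold lower). Igsf3, of the immunoglobulin superfamily, also had none, which makes it at least 168-fold and 277-fold lower than the 463 and 92.2 of RAW264.7. Tmem26, a membrane protein, stood at 1534 and 507 at 0 min and 4839.9 and 1703 at 120 min in RAW264.7, with 2 reads at 120 min in line 264 and 1 in line 3205. Sgms2 had 1 read at 120 min in line 264 and none in line 3205. Xirp1, an actin-binding protein, and Arhgap23, a GTPase-activating protein, were among the 5 with the lowest mean response: Xirp1 went from 4.55 and 7.7 to 0.982 and 3.67 in line 264 and from 34.2 and 4.78 to 15.5 and 2.08 in line 3205. Arhgap23 went from 195 and 115 to 127 and 70.9 and from 128 and 81.3 to 115 and 38.9, while RAW264.7 reached 1085 and 405. Neither gene passed the test in either line.

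The derived lines differed from each other in a set of these genes already without LPS. At 0 min 14 were higher and 6 lower in line 3205 than in line 264 by limma, where 4.52% and 3.72% of all genes were called. At 120 min 11 were higher and 14 lower (4.78% and 4.22%). Of the 14 higher at 0 min, 10 (71.4%) were among the 11 at 120 min (90.9%), and all 6 lower at 0 min were among the 14 (42.9%). With the replicate block the calls were 17 higher and 13 lower at 0 min (9.41% and 9.02% of all genes) and 19 higher and 29 lower at 120 min (9.83% and 9.66%). Leaving out 1 library at a time gave 15 to 24 calls at 120 min, with 15 without line 264 replicate 1 at 120 min. At 0 min it gave 11 to 16, with 11 without line 264 replicate 2 and 13 without line 3205 replicate 2. Some left-out library ended the calls of Abtb2, Gm11545, Pdcd1 and Itpkb at both times, of Pik3r5, Agpat4, C3ar1, Lrrc25, Mmp9 and Axl at 0 min, and of Metrnl, Akna, Grap, Jak2, Nfkb1, Samd9l and Slfn4 at 120 min.

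Clu (clusterin, a secreted chaperone), Clec4a1 (a C-type lectin), Nes (the filament protein nestin), Dcstamp (a protein of macrophage fusion), Flrt2, Pdcd1 (the checkpoint receptor PD-1), Abtb2, Pik3r5, Pmepa1 and Gm11545 were higher in line 3205 at both times. Clu stood at 2407 and 1337 at 0 min and 3823 and 1697 at 120 min in line 3205, at 32.8 and 18.8 and then 69.7 and 26.9 in line 264, and at 25.04 and 37.1 and then 75.9 and 129 in RAW264.7. The line difference was 6.12 (SE 0.56, adjusted p = 0.000136) at 0 min and 5.84 (SE 0.56, adjusted p = 0.000183) at 120 min, while Clu did not pass for LPS in either line. Flrt2, a cell adhesion protein, had 1 read in all at 120 min in line 264, 81.9 and 23.6 normalized reads in line 3205 and 3673 and 3107 in RAW264.7.

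Lower in line 3205 at both times were Slfn5, Ltb, Amotl2, Axl, Bcl2l1 and Itpkb. Slfn5, a Schlafen protein, was nearly lost from line 3205. Slfn5 in RAW264.7 measured 1422 and 1418 at 0 min, 1967 and 1616 at 60 min, and 6329 and 3873 at 120 min. Line 264 gave Slfn5 values of 1635 and 949 at 0 min, 2164 and 1099.8 at 60 min, and 3155 and 982 at 120 min. Line 3205 gave Slfn5 values of 9.42 and 4.78 at 0 min, 10.6 and 12.5 at 60 min, and 9.03 and 4.86 at 120 min. The line difference was -7.33 (SE 0.54, adjusted p = 3.05e-05) at 0 min and -7.84 (SE 0.54, adjusted p = 2.07e-05) at 120 min. Its neighbours Slfn8, Slfn10-ps and Slfn4 kept reads in line 3205 at 0 min: 1026 and 1341 for Slfn8, 308 and 400.5 for Slfn10-ps and 3481 and 3376 for Slfn4. Ltb differed by -3.25 (SE 0.44, adjusted p = 0.00148) at 120 min. Axl, a receptor tyrosine kinase that clears dead cells, differed by -3.04 (SE 0.32, adjusted p = 0.000359), with 388 and 344 normalized reads (line 264) against 49.7 and 38.2 (line 3205).

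Lower in line 3205 at 120 min but not called at 0 min were Akna, Grap, Hdc, Jak2, Nfkb1, Notch1, Samd9l and Slfn4, of which the block called Hdc and Jak2 at 0 min too. Hdc, which makes histamine, gave 1423 and 625 (line 264) against 118 and 84.7 (line 3205), beside 29.4 and 40.5 at 0 min and 1048 and 708 at 120 min in RAW264.7. Jak2, a kinase of cytokine and interferon receptors, went from 1574 and 1115 to 7584 and 5722 in RAW264.7, from 4528 and 4015 to 6775 and 5608 in line 264 and from 2886 and 1653 to 2735 and 1417 in line 3205. The Jak2 difference between lines at 120 min was -1.65 (SE 0.34, adjusted p = 0.0145). Samd9l, an antiviral protein, differed by -1.42 (SE 0.34, adjusted p = 0.0271). Metrnl, a secreted factor, was the gene called higher in line 3205 at 120 min alone, at 1.23 (SE 0.24, adjusted p = 0.0105), and Agpat4, C3ar1, Lrrc25 and Mmp9 were called higher at 0 min alone. The block called Agpat4, C3ar1, Lrrc25 and Zbtb32 at both times, and at 120 min alone also Olfml3, Rsbn1, Ripk2 and Sash1 as higher in line 3205. As lower in line 3205 at 120 min the block added Smox, Fgr, Ahdc1, Micall2, Usp18, Icam5, Jade2, Adora2b, Cebpd, Batf2, Usp27x, RP23-76P9.1, A530032D15Rik, Gm8995 and 2010002M12Rik. Of these, Fgr and Icam5 were called at 0 min too.

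**Figure D5:**
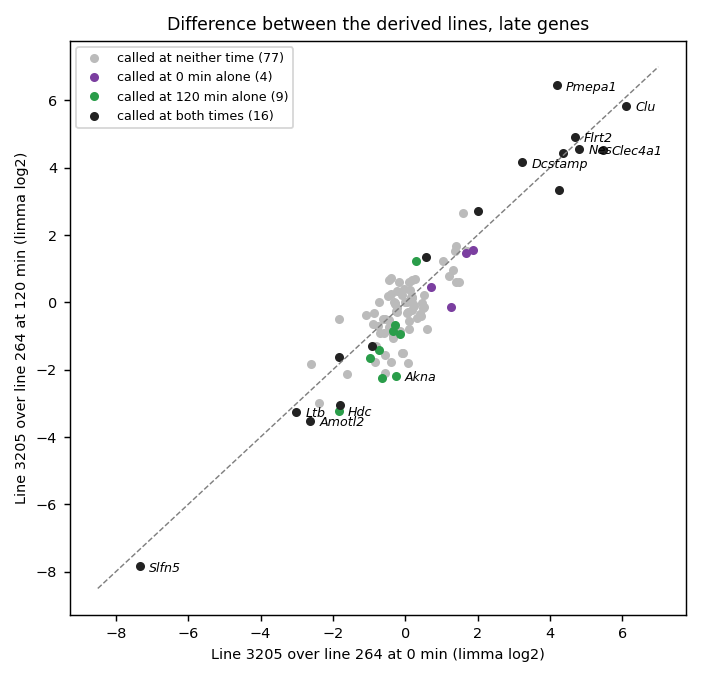
limma log2 difference of line 3205 over line 264 at 0 min (x axis) and at 120 min (y axis) for the 106 genes, coloured by the time at which the difference was called, with the dashed line at equal difference. The 16 genes called at both times run from Slfn5 at the bottom left to Clu and Pmepa1 at the top right, and of the 9 called at 120 min alone all but Metrnl lie below the dashed line.

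The difference in response itself was tested as the 120 min change of line 3205 minus that of line 264. It was called for none of the 106 genes by limma, edgeR or DESeq2, each without the replicate block, and limma called none of 17450 (0%). The result with the block is not given. At an unadjusted p below 0.05 limma gave 8 (7.55%), edgeR 7 and DESeq2 9. The share of all genes at that threshold is not given, so these counts are not a result about the genes. Of the 8, 3 had a higher estimate in line 3205. These were Pik3r5, at 0.79 (95% interval 0.34 to 1.23), Pmepa1, at 2.26 (95% interval 0.56 to 3.95), and Metrnl, at 0.94 (95% interval 0.19 to 1.69). Next in the same direction were Ptprj, a receptor phosphatase, at 0.64 (95% interval -0.10 to 1.39), and Hcar2, at 1.11 (95% interval -0.19 to 2.41). Pmepa1 had no read in line 264 at any time and went from 9.42 and 31.1 to 81.3 and 91.7 in line 3205, so its line 264 response could not be measured.

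The 5 with a smaller response in line 3205 were Akna, a protein of microtubule organization, at -1.92 (95% interval -3.23 to -0.62), Notch1, at -1.61 (95% interval -2.69 to -0.53), Mmp9, at -1.41 (95% interval -2.30 to -0.52), Axl, at -1.23 (95% interval -2.25 to -0.21), and Grap, at -0.81 (95% interval -1.56 to -0.05). Akna went from 1802 and 1677 to 8499 and 5921 in RAW264.7, from 2175 and 1759 to 6927 and 2883 in line 264 and from 1937 and 1394 to 1377 and 709.7 in line 3205. Notch1, the receptor, went from 93.6 and 97.3 to 258 and 413 in RAW264.7, from 115 and 203 to 288 and 369 in line 264 and from 116 and 81.3 to 67.7 and 67.4 in line 3205. In both genes the line 3205 libraries at 120 min lay below those at 0 min. In limma without the block every adjusted p of this difference was 1 for the 106 genes. That fit thus called no gene as responding differently in the derived lines, and the intervals above are what it allows. It leaves out the pairing by replicate number, and the block gave more calls in the other comparisons at 120 min. A lack of difference is therefore not shown.

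At 60 min few of the genes passed the test in the derived lines. Of 105 tested (Sgms2 did not pass the filter in that table), limma called none in line 264, where 0.821% of all genes were called higher and 0.370% lower. At an unadjusted p below 0.05, 6 of the 105 (5.71%) were found in line 264 and 10 (9.52%) in line 3205. The share of all genes at that threshold is not given. In line 264 edgeR called none, DESeq2 called 3 higher and 1 lower (1.64% and 1.32% of all genes), and the replicate block 3 higher and 3 lower (2.10% and 1.89%). In line 3205 limma called 1 higher, against 0.948% of all genes, and none lower (0.277%). That gene was Pcdh7, at 6.61 and 9.35 normalized reads at 60 min, with a log2 change of 2.58 (SE 0.49, adjusted p = 0.0362), and it was back to 0 and 0.694 at 120 min. Its call was lost with a pseudocount of 0.5 or of 5, by edgeR and DESeq2, and without replicate 1 at 0 min or either 60 min library, and it rested on 10 and 15 reads at 60 min. The replicate block called 2 genes higher in line 3205 (2.33% of all genes).

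The 243 genes that were at least 3-fold higher at 120 min in RAW264.7 but had reached 1.5-fold at 60 min are set beside them here without a test. Of these, 82 of 242 tested (33.9%) were called higher at 60 min in line 264 and 95 (39.3%) in line 3205. At 120 min 171 of 243 (70.4%) were called in line 264 and 162 (66.7%) in line 3205, with median log2 changes of 2.4 and 2.46. The shares for the 106 genes were 25.5% and 26.4%, with medians of 1.01 and 0.62. No gene was left out of the 243 by its name, while 19 were left out beside the 106. The RAW264.7 responses were not matched either, so the sets differ in more than their timing.

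Some of the 106 lie side by side. Within 500 kb there were 15 adjacent pairs. On chromosome 11 Slfn5, Slfn8, Slfn10-ps and Slfn4 follow each other with gaps of 37.3, 7.31 and 135 kb, and Gm12250 and Igtp lie 9.36 kb apart. On chromosome 19 I830012O16Rik and 2010002M12Rik lie 3.64 kb apart, and on chromosome 1 A530032D15Rik, A530040E14Rik and Sp140 follow each other. Chromosome 2 holds Id1, Bcl2l1 and Plagl2, Mmp9 and Ocstamp, and Zbp1 and Pmepa1, and chromosome 6 C3ar1 and Clec4a1. C3ar1 was called higher in both derived lines and Clec4a1 in neither, and of the Schlafen genes Slfn4 and Slfn10-ps were called in both and Slfn5 and Slfn8 in neither. These differences between neighbours were not tested. The Schlafen, Sp140-like and Ifit genes have close copies, and reads that fit several copies can be split between them or lost, so the values of single genes there are uncertain.

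In primary macrophages of the same series, the authors' deposited table lists 193 genes, 3 of them among the 106. Per the authors' deposited table the log2 fold changes with LPS were 1.68 for Adora2b, 1.61 for Nupr1 (a stress-induced nuclear protein) and 1.46 for Ripk2. Each had 1 ChIP library per target and time, so the ratios of 60 over 0 min have no replicate check. The H3.3 serine 31 phosphorylation signal over the gene was 4.52-fold higher at 60 min for Ripk2, 2.18-fold for Nupr1 and 1.96-fold for Adora2b, and the median of the 187 genes that the table lists as raised was 3.89-fold. For H3.3 itself the ratios were 1.86 (Ripk2), 2.08 (Nupr1) and 1.35 (Adora2b), against a median of 1.95. In RAW264.7 these genes were below 1.5-fold at 60 min by the choice of genes, so a mark measured at 60 min in other cells is set beside a rise measured at 120 min. Whether the RNA of these genes also rose late in primary macrophages was not examined.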

How the data were processed

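RNA was measured in 18 libraries of RAW264.7 and its derived lines, in 9 groups of 2. The deposited signal values are read counts per gene divided by 1 size factor per library, per the file headers (which carry the column names of DESeq2) and the values, of which 100% were whole reads within 0.1 read. The submitters' processing notes name Trim Galore 0.5.0, STAR 2.4.2, Subread 1.4.6, featureCounts, DESeq2, R 3.4.0 and the build mm10 for RNA, and deepTools 2.5.4, SAMtools 1.5, Picard 2.14.0 and Bowtie2 2.3.4.1, without roles. The ChIP signal per gene was deposited by the authors in a scaling that no header or label states. The log2 fold change of primary macrophages is the authors' deposited value.

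The 60 and 120 min tables share 1 normalization (0 min values differ by at most 0.0469). From log2(value + 1), limma 3.58.1 (R 4.3.3) with an intensity trend was fitted on the 12 libraries of each time's table, 1 mean per group, for 17450 (120 min) and 17301 (60 min) genes with a mean of at least 1, with Benjamini-Hochberg adjustment over all of them. Every SE and adjusted p in the text is from limma unless another tool is named. edgeR 4.0.16 and DESeq2 1.42.0 on recovered reads, other pseudocounts, scalings, filters and left-out libraries were alternatives, and the fits were tested on simulated data. Depth was 13084927 to 53860392 reads a library.

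Replicate numbers are shared by all groups. Deviations of same-numbered libraries from their group means correlated at 0.339 to 0.831 in the 60 min table and 0.385 to 0.761 in the 120 min table over all 15 pairs of groups each, so the numbers were taken to pair the libraries, from the data and not from the labels.

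The genes, gene lists and tests were chosen with earlier results of these data known. Per-library values were due for the 8 most abundant genes, the 5 largest and 5 smallest mean responses of the derived lines, up to 5 genes per direction with the smallest p in the response difference, and genes on a list. Other genes given with values (such as Ltb, Clu, Hdc, Jak2, Furin, Tmem26, Flrt2 and those with Gm or Rik names), and the 5 promoters, were chosen after their values were seen.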

Additional observations from a re-analysis of the deposited data

Results flagged for a closer look

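For 8 of the 106 genes, among those with more than 20 reads at 0 min in the derived line, both RAW264.7 libraries were higher at 120 than at 0 min while both libraries of a derived line were lower. The RAW264.7 direction is fixed by the choice of genes, and the difference between the lines was not tested. In line 264 these were Olfml3, with a log2 change of group means of -0.577, Kcna3, a potassium channel, with -0.278, and Ahnak2 with -0.673. In line 3205 they were A530032D15Rik with -0.371, A530040E14Rik, which overlaps it, with -0.831, Notch1 with -0.543, Akna with -0.674 and Gm12250 with -1.13. None of the 8 was called lower by limma in that line. With fewer reads, Xirp1 and Sgms2 in line 264 also went that way: Xirp1 from 5 and 9 reads at 0 min to 1 and 3 at 120 min, and Sgms2 from 2 and 4 to 1 and 0. In all, both libraries were lower for 5 of the 106 (4.72%) in each derived line. Over the 10298 genes the share was larger, at 24.1% in line 264 and 21.3% in line 3205.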

How the results depend on the processing

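None of the 101 gene calls changed direction under any alternative run. The direction of genes that were not called was less firm. For Trim21 in line 264 the log2 response was 1.12 in replicate 1 and -0.75 in replicate 2. With the replicate block the calls were 52 against 27 (line 264, 120 min), 40 against 28 (line 3205, 120 min), 3 higher and 3 lower against none (line 264, 60 min), 2 against 1 (line 3205, 60 min), and 30 against 20 at 0 min and 48 against 25 at 120 min between the lines. The block ended none of the 101 gene calls made without it. With only the groups compared in the fit, the calls fell to 0 in line 264 and 0 in line 3205 at 120 min, 0 in line 3205 at 60 min, and 5 at 0 min and 8 at 120 min between the lines, where fewer libraries estimate the spread. DESeq2 gave 46 higher calls in line 264 at 120 min, and 3 higher and 1 lower at 60 min. The single call in line 3205 at 60 min became 0 with a pseudocount of 0.5 or 5, without the filter, without the trend and by edgeR; the cause was not tested. Leaving out 1 library gave 18 to 33 calls (line 264, 120 min), 18 to 26 (line 3205, 120 min), 0 to 1 at 60 min in each line, 11 to 16 (between lines at 0 min) and 15 to 24 (at 120 min). It kept 286 gene calls and lost 118. Of the 101 gene calls 22 were lost without the trend, 25 without the filter and 88 with only the groups compared, and at most 4 under TMM scaling, either pseudocount, edgeR, DESeq2 or all 18 libraries in 1 fit (chosen after seeing the data). Depth limits the genes near 0 reads, and 2 libraries a group limit every test.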
